A study of Mus musculus with 8 samples.

Results

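The netrins and their receptors are a small set of guidance genes, and 7 of them were followed here in RNA of the mouse outflow tract (OFT), the arterial pole of the embryonic heart. The ligands are *Ntn1* and *Ntn4*, and the receptors are *Unc5a*, *Unc5b*, *Unc5c*, *Neo1* and *Dcc*. They were taken by name, and all 7 were found among the 14608 genes of the deposited table. The set was selected on values of these same libraries, the differences in level between mutant and control, so those differences are given below as a description. Where a test across all genes is mentioned, its calls of these 7 genes carry no weight as evidence.

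Netrins are secreted, laminin-related proteins that steer growing axons and migrating cells. DCC and neogenin, the product of *Neo1*, commonly mediate attraction to netrin-1, whereas receptors of the UNC5 family mediate repulsion. Several of these receptors are called dependence receptors because they can trigger cell death when no ligand is bound. Neogenin is also a receptor for repulsive guidance molecules, and UNC5B is found on endothelium, where it takes part in vessel patterning.

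The study asked how a *Mib1* allele and a *Gata6* allele interact in valve and septum development. *Mib1* encodes an E3 ubiquitin ligase needed for NOTCH ligand activity, and *Gata6* encodes a cardiac zinc finger transcription factor. The 4 mutant libraries come from embryos heterozygous for both alleles, Mib1V943F/+ Gata6STOP/+, the first a missense allele and the second a null allele. The 4 control libraries are labelled Control, and their titles carry WT. Their genotype at either gene is not spelled out further, and no single mutant was analysed here. Both groups are E11.5 OFT, and each library is a pool of embryos. The sample labels give 3 individuals per pool, whereas the methods give 3 pools of 4 pairs of OFT, so the number of embryos behind a library is unsettled, and the p-values below measure the spread between these libraries.

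Libraries held between 10669420 and 30469165 reads on listed genes, the shallowest being control replicate 2, so that 1 read was worth between 0.03251 and 0.09483 CPM, the unit of the table, which counts reads of a gene relative to the scaled size of its library. *Gata6* stood at 262 ± 18.5 CPM in controls and 249 ± 36.1 in mutants (SD, n = 4 each), and *Mib1* at 122 ± 15.6 and 128 ± 6.62 CPM. Neither level separated the labelled groups, so every direction given here rests on the labels. Mutant replicate 2 stood apart, with a chi-square per gene of 30.8 to 33.7 against the other mutant libraries, which differed among themselves by 9.38 to 12.4. Fitted differences of the 7 genes are therefore also given without this library. Those of other named genes include it, except in the ranges with a library left out. Shares and summed markers include it, except in the ranges with a library left out. Cardiomyocyte, smooth muscle, cushion mesenchyme and endothelial markers were present in all libraries. Of the 7 epithelial markers *Krt8* and *Krt18* were listed, with a sum between 69.1 and 89.0 CPM, and *Epcam*, *Cdh1*, *Foxa2*, *Nkx2-1* and *Shh* were not, while the 5 listed neuronal markers summed to between 42.3 and 61.1 CPM.

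Of the ligands, *Ntn1* was the one whose groups stood apart. In control OFT *Ntn1* (ENSMUSG00000020902, GRCm38 chromosome 11, 68209364 to 68400823, minus strand) was at 33.5, 26.3, 25.5 and 15.3 CPM in replicates 1 to 4. In mutant OFT it was at 12.4, 5.59, 9.82 and 13.6 CPM. Every control library was above every mutant library, although control replicate 4 and mutant replicate 4 lay close together. The means were 25.2 ± 7.5 and 10.4 ± 3.56 CPM (SD, n = 4 each), a control level 2.43 times the mutant level. On the log2(CPM + 0.5) scale the mutant was lower by a fitted difference of -1.26 (SE 0.26). It was -1.0 without mutant replicate 2, the lowest library, and -1.16 once the trend of each library with GC content was removed. The 8 values rest on 152 to 931 reads, and the spread within groups was 6.25 times what counting alone would give.

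The basement membrane netrin *Ntn4* (ENSMUSG00000020019, chromosome 10, 93640681 to 93747207, plus strand) did not separate the groups. Its control values were 14.3, 14.5, 18.6 and 18.5 CPM. Its mutant values were 13.8, 24.2, 23.1 and 21.3 CPM. Mutant replicate 1 was the lowest of all 8 libraries, while the other 3 mutant libraries were the highest. The means were 16.5 ± 2.38 and 20.6 ± 4.72 CPM, with a fitted log2 difference of 0.29 (SE 0.16). This difference was 0.47 without mutant replicate 1 and 0.21 without mutant replicate 2.

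Because levels of different genes can be compared only per length, CPM was divided by the kilobases of annotated exons of each gene before shares were formed. *Ntn1* supplied 58.3, 51.9, 45 and 33.1% of the summed *Ntn1* and *Ntn4* level in the control libraries, by replicate, and 35.0, 12.1, 20.2 and 27.6% in the mutant libraries. The mean share was 47.1 ± 10.8% in controls and 23.7 ± 9.82% in mutants, with control replicate 4 below mutant replicate 1. The summed level of both netrins differed less, at 8.41 ± 0.848 CPM per kb in controls and 7.16 ± 1.02 in mutants. In controls the netrins were thus near parity, and in mutants *Ntn4* made up most of the sum.

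**Figure D1:**
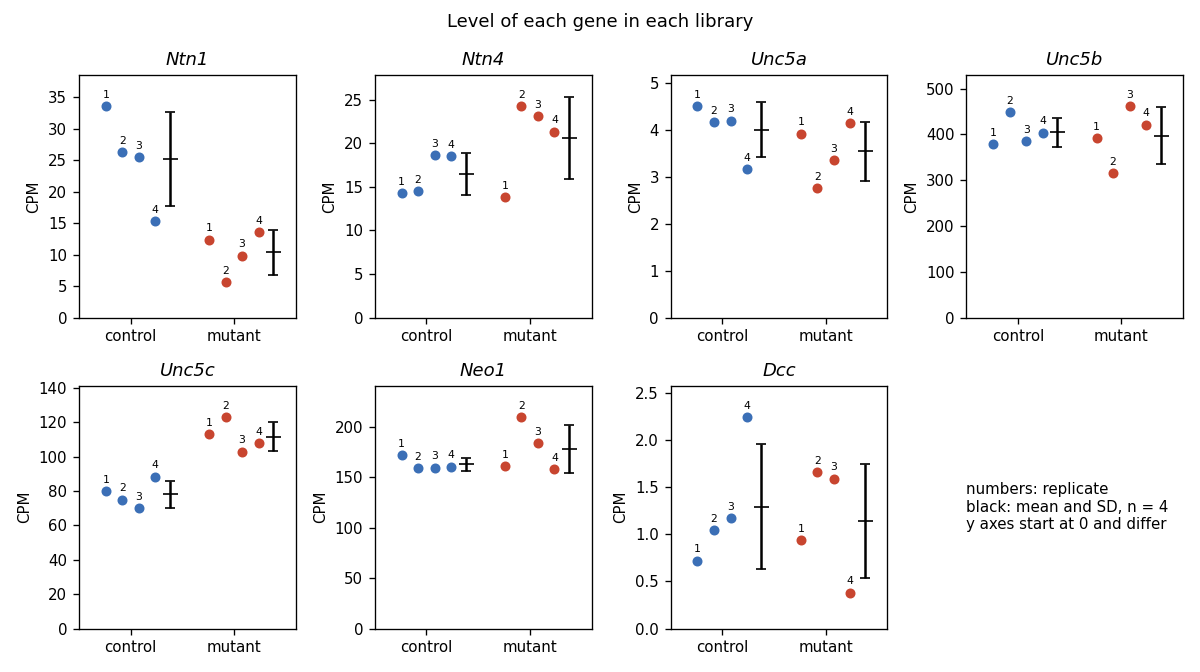
Level of each gene in CPM (y axes, each from 0 and on its own scale) in the 4 control and 4 mutant libraries, with replicate numbers beside the points and mean and SD in black. Ntn1 lies lower and Unc5c higher in all 4 mutant libraries than in any control library, and the groups overlap in the other 5 genes.

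**Figure D2:**
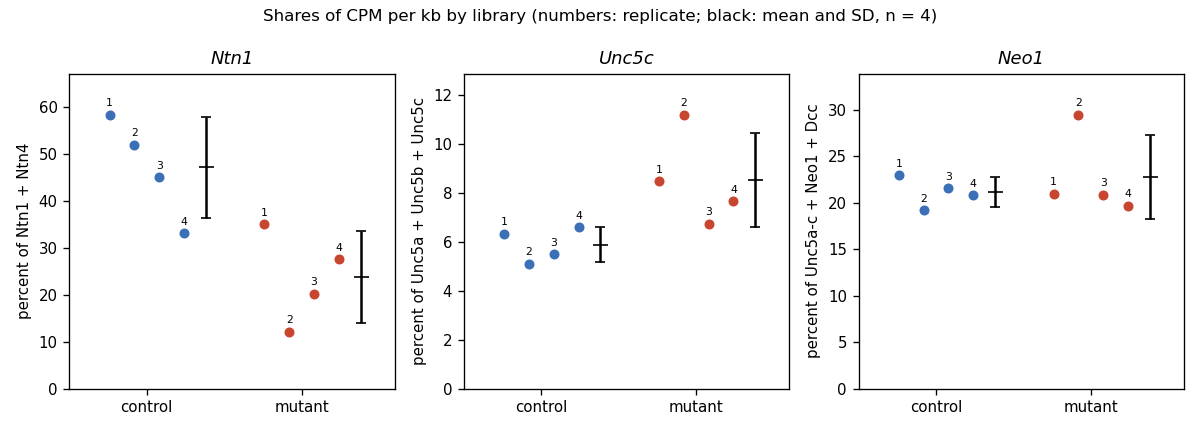
Shares of summed CPM per kb of exons in percent (y axes) by library, with mean and SD (n = 4) in black. The Ntn1 share of both netrins is lower in mutants apart from control replicate 4 at 33.1% and mutant replicate 1 at 35.0%, the Unc5c share of UNC5 receptors is higher in every mutant library, and the Neo1 share overlaps.

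Among the receptors, *Unc5b* (ENSMUSG00000020099, chromosome 10, 60762593 to 60831581, minus strand) was by far the most abundant. It stood at 379, 449, 386 and 404 CPM in controls and at 392, 315, 461 and 421 CPM in mutants. Both the highest and the lowest value were mutant libraries, so the groups overlapped fully. The means were 405 ± 31.4 and 397 ± 61.4 CPM, and the fitted log2 difference was -0.04 (SE 0.11), or 0.07 without mutant replicate 2. Counts for *Unc5b* were deep, from 4734 to 14167 reads, and the spread within groups was 11.9 times counting error.

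Since *Gata6* is one of the mutated genes, the 250 bases upstream of the RefSeq start of the most abundant receptors are shown for reference, 5′ to 3′ on the strand of the gene (RefSeq, GRCm38.p6). *Unc5b* is shown because it was the only one of the 5 genes with an entry that held a GATA hexamer. *Neo1*, next in level, is shown for comparison. Capitals mark the hexamer. The hexamers searched on both strands were AGATAA or AGATAG or TGATAA or TGATAG.
Unc5b, chr10:60831582-60831831, minus strand: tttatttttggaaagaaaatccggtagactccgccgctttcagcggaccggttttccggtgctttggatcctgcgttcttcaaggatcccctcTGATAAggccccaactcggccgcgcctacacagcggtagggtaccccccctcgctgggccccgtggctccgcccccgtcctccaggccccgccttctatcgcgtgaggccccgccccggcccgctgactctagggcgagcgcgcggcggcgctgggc
Neo1, chr9:59036442-59036691, minus strand: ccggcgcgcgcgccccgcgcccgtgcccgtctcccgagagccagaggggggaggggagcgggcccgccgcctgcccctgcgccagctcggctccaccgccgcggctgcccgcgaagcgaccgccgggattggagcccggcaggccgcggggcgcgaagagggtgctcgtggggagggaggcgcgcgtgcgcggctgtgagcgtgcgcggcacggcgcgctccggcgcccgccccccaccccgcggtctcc
The hexamer TGATAA of *Unc5b* begins at base -157 from the start. At least 1 hexamer was present in 8718 of 32851 windows of this length (26.5%). No hexamer was present in the windows of *Neo1*, *Ntn4*, *Unc5a* and *Unc5c*, which says only that those letters are not in them. The *Unc5c* and *Ntn4* windows, although upstream of the RefSeq start, lie inside the span of their gene in the annotation used here for positions. The *Unc5c* window overlaps annotated exons, and the *Ntn4* window does not. The GC content of the *Unc5b* and *Neo1* windows was 66.8% and 83.2%, against a median of 52.4% over all windows.

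*Unc5c* (ENSMUSG00000059921, chromosome 3, 141465216 to 141834924, plus strand), which encodes another repulsive receptor, was the receptor whose groups stood apart. Controls held 79.8, 75.0, 69.9 and 88.4 CPM. Mutants held 113, 123, 103 and 108 CPM. The lowest mutant library was above the highest control library. The means were 78.3 ± 7.89 and 112 ± 8.46 CPM, a mutant level 1.43 times the control level, and the fitted log2 difference was 0.51 (SE 0.08), or 0.47 without mutant replicate 2, the highest library. The reads behind these values numbered 791 to 3340. Exons of *Unc5c* share 118 bp (0.617% of their length) with the antisense gene *Gm15688*. The library kit kept strand, but the sources used here do not say whether strand was used in counting.

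*Unc5a* (ENSMUSG00000025876, chromosome 13, 54949411 to 55006018, plus strand), a receptor best known from neurons, was low. It stood at 4.5, 4.17, 4.2 and 3.16 CPM in controls and at 3.92, 2.76, 3.35 and 4.15 CPM in mutants. The groups overlapped, with control replicate 4 and mutant replicate 2 at the low end. The means were 4.01 ± 0.585 and 3.54 ± 0.623 CPM, with a fitted log2 difference of -0.16 (SE 0.16), or -0.06 without mutant replicate 2. Only 44 to 125 reads stood behind each value, and 34 bp (0.816%) of its exons overlap *Hk3* on the other strand.

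By the same division per kb, *Unc5c* made up 6.34, 5.11, 5.50 and 6.60% of the UNC5 receptor level in control replicates and 8.48, 11.2, 6.74 and 7.67% in mutant replicates. The groups did not overlap, but control replicate 4 and mutant replicate 3 nearly touched. The mean share was 5.89 ± 0.698% in controls and 8.52 ± 1.91% in mutants, and *Unc5b* held 92.7 ± 0.698% and 90.3 ± 1.93%. These shares depend on the length taken for *Unc5c*, whose annotated exons cover 19135 bp while its longest transcript has 9646 bp. With the longest transcript of each gene the *Unc5c* share was 10.4 ± 1.2% and 14.7 ± 3.06%.

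*Neo1* (ENSMUSG00000032340, chromosome 9, 58874687 to 59036441, minus strand) was the steadiest of the 7 genes in controls, at 172, 159, 159.5 and 160.4 CPM. In mutants it was at 161, 209.5, 184 and 158 CPM. Mutant replicates 2 and 3 were above all controls and mutant replicates 1 and 4 within or below them. The means were 163 ± 5.95 and 178 ± 24.0 CPM and the fitted log2 difference was 0.12 (SE 0.09), or 0.04 without mutant replicate 2. *Neo1* made up 21.2 ± 1.58% of the summed level of the 5 receptors in controls and 22.8 ± 4.49% in mutants.

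*Dcc* (ENSMUSG00000060534, chromosome 18, 71253634 to 72351069, minus strand), the classical attractive netrin-1 receptor, was near the lower limit of the table. Controls held 0.720, 1.04, 1.17 and 2.24 CPM and mutants 0.934, 1.66, 1.59 and 0.381 CPM, from 10 to 58 reads. Both extremes came from the replicates numbered 4. The means were 1.29 ± 0.657 and 1.14 ± 0.603 CPM. The fitted log2 difference of -0.15 (SE 0.32) became 0.08 without control replicate 4 and 0.12 without mutant replicate 4. Without mutant replicate 2 it was -0.31. Over all libraries the difference was smaller than its error, and its sign rests on single libraries. *Dcc* shares chromosome 18 with *Mib1* and *Gata6*, and any bearing of position on its level was not tested.

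Across all genes limma called 0 of 14608 at an adjusted p under 0.05 (0%), and 0 of the 7 netrin and receptor genes. At an unadjusted p under 0.05 it called 1763 genes (12.1%), 2 of the 7 being among them. The likelihood ratio test of edgeR, run on the whole reads that the CPM values resolve into, called 107 genes (0.732%), of which 26 were higher (0.178%) and 81 lower (0.554%) in mutants. *Unc5c* was among the higher and *Ntn1* among the lower genes. The quasi-likelihood test called 0 genes and DESeq2 called 194. The groups did not overlap for 1037 genes (7.10%), and for 2 of the 7. As the genes were selected with this contrast in view, nothing is read from their counts.

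The genes were also put in order of level over these libraries, and neighbours in that order were compared by a test. Mean levels over the 8 libraries were 64.1 ± 7.24 CPM per kb for *Unc5b*, 19.6 ± 2.09 for *Neo1*, 4.96 ± 1.01 for *Unc5c*, 4.95 ± 1.10 for *Ntn4*, 2.83 ± 1.53 for *Ntn1*, 0.906 ± 0.147 for *Unc5a* and 0.0924 ± 0.0447 for *Dcc*. Of the 6 neighbouring pairs in this order, 4 differed in the same direction in 8 of 8 libraries, each with an exact two-sided sign-flip permutation p of 0.00781, the smallest that 8 libraries allow, and an adjusted p of 0.0117. These were *Unc5b* over *Neo1* (3.27-fold), *Neo1* over *Unc5c* (4.0-fold), *Ntn1* over *Unc5a* (2.74-fold) and *Unc5a* over *Dcc* (10.9-fold). The order was taken from these same libraries, so the tests show only how steadily neighbours differed. The fold of *Ntn1* over *Unc5a* pools groups that differ. *Unc5a* was at 0.962 CPM per kb in controls and 0.851 in mutants, beside 4.01 and 1.65 for *Ntn1*. The places of *Unc5c* and *Ntn4* swap between the groups, while the mean of *Ntn1* is below both in each group. The places of these 3 genes rest in part on the differences the set was selected on. They are therefore described only, and nothing is read from the tests of pairs that include any of them. In controls the 3 genes lay close together, with *Ntn4* at 4.4 ± 0.637, *Unc5c* at 4.09 ± 0.412 and *Ntn1* at 4.01 ± 1.19 CPM per kb, and neighbours differed by less than their spread. In mutants *Unc5c* was at 5.84 ± 0.442, *Ntn4* at 5.51 ± 1.26 and *Ntn1* at 1.65 ± 0.567 CPM per kb. The sizes of the steps also depend on the gene model. Divided by the longest transcript, *Neo1* was above *Unc5c* by a log2 ratio of 1.25 in place of 2.0, and *Unc5c* above *Ntn4* by 0.96 in place of 0.01.

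**Figure D3:**
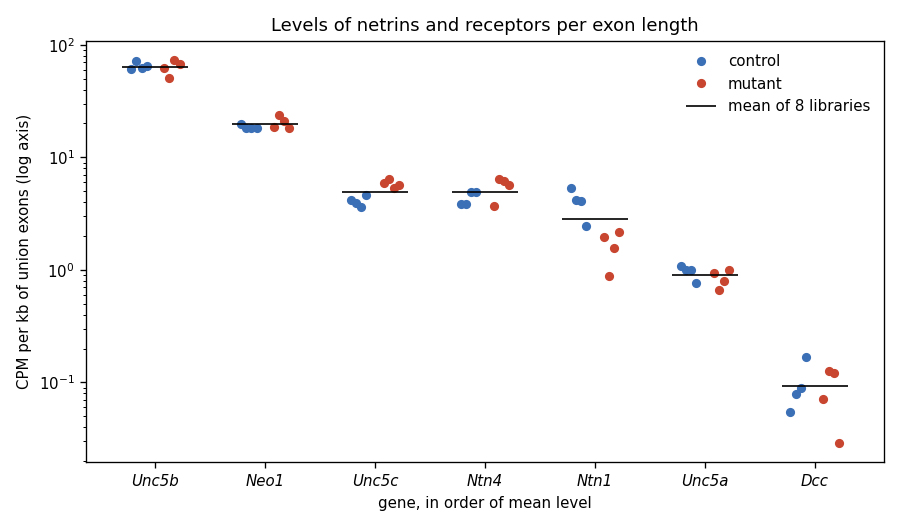
CPM per kb of annotated exons (log axis) for each gene in order of its mean (black line), one point per library, controls left and mutants right. Unc5b at 64.1 and Neo1 at 19.6 CPM per kb lie above all other genes, Unc5c and Ntn4 have nearly the same mean, and Dcc at 0.0924 lies lowest.

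The genes also differed in how much they varied between replicates of one group. The coefficient of variation was 29.8% in controls and 34.3% in mutants for *Ntn1*, against 3.66% and 13.4% for *Neo1* and 10.1% and 7.57% for *Unc5c*. *Dcc* reached 50.8% and 52.8%, with an SD of log2 levels within groups of 0.549 where counting alone would give 0.317. Within groups the SD of log2 levels was 0.506 for *Ntn1*, 0.294 for *Ntn4*, 0.215 for *Unc5a*, 0.182 for *Unc5b*, 0.139 for *Neo1* and 0.127 for *Unc5c*.

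Markers of the cell types in the OFT were summed by library to be set beside these genes. The 9 cardiomyocyte markers, all listed, summed to between 21808 and 25349.6 CPM in controls and between 16771 and 20577 CPM in mutants, with 9 of 9 lower in mutants. Most of this sum was *Myh7* and *Actc1*, with 10362 and 6244 of a mean of 23997 CPM in controls. In mutants they held 7915 and 4961 of 18727 CPM. The 3 second heart field markers used (*Isl1*, *Fgf10* and *Tbx1*) summed to between 32.2 and 37.6 CPM in controls and between 48.0 and 68.4 CPM in mutants, with 3 of 3 higher. Most of this sum was *Isl1*, with 29.2 of a mean of 35.1 CPM in controls and 46.2 of 54.0 in mutants. The cardiomyocyte and second heart field sums each had an exact two-sided permutation p of 0.0286, the smallest that 4 against 4 allow. The adjusted p was 0.157 over 11 lists, which were chosen with earlier results of these data known. The exact p of the other 9 lists lay between 0.0857, for neurons, and 0.914. Among these lists, erythroid (7 of 7), epicardial (5 of 5) and listed epithelial markers (2 of 2) were also all higher in mutants. Their exact permutation p was 0.486, 0.600 and 0.686. In bulk tissue, fewer cells of a type and less RNA per cell cannot be told apart.

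Since *Ntn1* and *Unc5c* were selected on their difference between the groups, a direction shared with the cardiomyocyte or second heart field markers is not a result. Within groups, which the selection did not use, the 4 control libraries stood in the same order by *Ntn1* and by summed cardiomyocyte markers, and so did the 4 mutant libraries. Between groups, which the selection did use, the summed markers had a mutant level 0.780 times the control level and *Ntn1* one of 0.412 times. Nothing is read from these values side by side. *Ntn4* followed the order of the cushion mesenchyme markers and of the epicardial markers in both groups, among them the low mutant replicate 1. Of the 77 pairs of a gene and a marker list, these 3 were the ones that agreed in order in both groups, a comparison chosen after the values were seen. *Unc5c* shared its order with no list in either group. The part that cell type markers have in the levels of *Ntn1*, *Ntn4* and *Unc5c* was not tested.

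**Figure D4:**
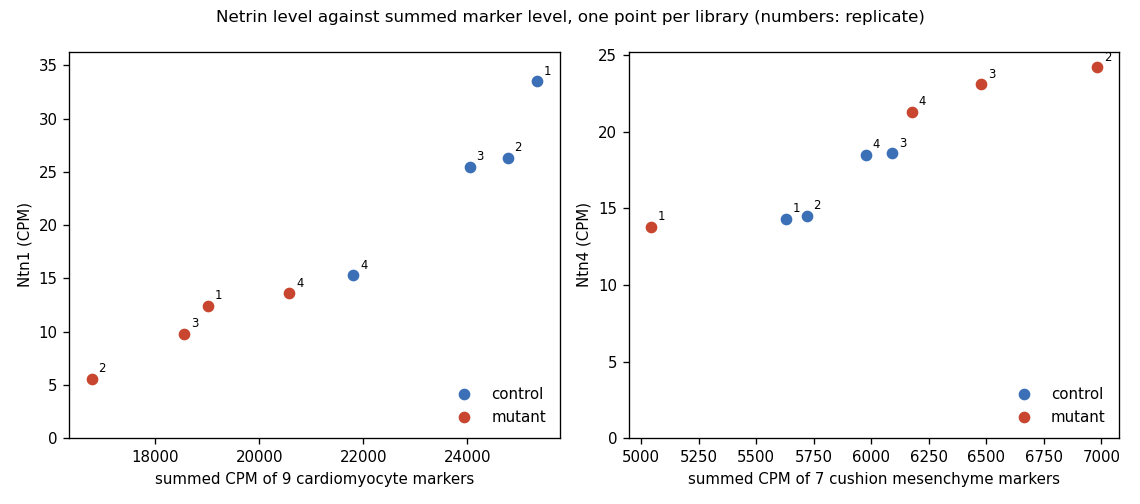
Level of Ntn1 (left) and Ntn4 (right) in CPM against the summed CPM of 9 cardiomyocyte and 7 cushion mesenchyme markers, one numbered point per library, with y axes from 0 and x axes that do not start at 0. Within each group the libraries keep the same order on both axes, and mutant replicate 1 is low for both Ntn4 and cushion markers.

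The genes most like *Ntn1* and *Unc5c* were sought after each group's mean was taken away, so that the difference between groups played no part. Among 11643 genes, *Atpaf1* (an ATP synthase assembly factor), *Plxnd1* (a semaphorin receptor), *Ogdh* (an enzyme of the citric acid cycle), *Gpr182* (a receptor of endothelium) and *Ehbp1l1* followed *Ntn1* most closely, with Pearson r over 8 libraries from 0.983 to 0.968. For *Unc5c* they were *Pcnp*, *Usp14* (a deubiquitinase of the proteasome), *Cnpy4*, *Yod1* (a deubiquitinase) and *Elavl1* (an RNA-binding protein), with r from 0.990 to 0.974. These are the highest of many values over few libraries and are given without a test. Of the genes compared, *Ntn1* had r values of -0.602 with *Ntn4*, -0.620 with *Unc5c*, -0.617 with *Neo1* and 0.460 with *Unc5b*.

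Of 76 other genes of the netrin pathway 70 were in the table, and none was called in either direction. Each of limma, the likelihood ratio test, the quasi-likelihood test and DESeq2 called 0 of them at an adjusted p under 0.05. At an unadjusted limma p under 0.05, 3 were higher and 3 lower in mutants (8.57%, beside 12.1% of all genes), and in 3 the groups did not overlap (4.29%, beside 7.10% of all genes, *Siah2*, *Pick1* and *Adgrl2*, named after their values were seen). The median log2 difference was -0.016, beside 0.001 over all genes.

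Of the 3 other netrins listed, *Ntn3* was at 11.8 CPM in controls and 11.1 in mutants, and the membrane-anchored *Ntng1* and *Ntng2* averaged between 1.94 and 3.19 CPM. Of the 6 other netrin receptors, the adenosine receptor *Adora2b* had the most positive difference, 0.47 (SE 0.20, limma, adjusted p = 0.399), at only 0.907 and 1.47 CPM. The integrin subunit *Itga6* had the most negative, -0.22 (SE 0.12, limma, adjusted p = 0.474).

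Other ligands and partners of UNC5 and neogenin numbered 15. *Flrt2* and *Flrt3*, adhesion ligands of UNC5 receptors, were expressed at 87.6 and 121 CPM in controls and at 103 and 130.3 CPM in mutants. *Rgma* and *Rgmb*, ligands of neogenin, were at 18.9 and 26.8 CPM in controls and at 18.3 and 28.8 CPM in mutants. These 4 were chosen for their role after their values were seen, and their groups overlapped. The largest differences of either sign were those of the low genes *Bmpr1b*, a BMP receptor, at 0.63 (SE 0.22, limma, adjusted p = 0.329), and *Hjv*, which encodes hemojuvelin of the same family as *Rgma*, at -0.89 (SE 0.34, limma, adjusted p = 0.359).

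Among 37 cytoplasmic effectors the range was narrow, from 0.17 (SE 0.10) for the adaptor *Nck1* to -0.22 (SE 0.08) for the ubiquitin ligase *Siah2*, with adjusted p of 0.498 and 0.353 by limma. *Siah2* was at 19.3, 21.9, 18.8 and 20.1 CPM in controls and at 16.6, 17.4, 17.3 and 17.1 CPM in mutants, a small difference between groups that did not overlap. Among 9 effectors of dependence receptor death, *Appl1*, an adaptor protein that binds DCC, had the most positive difference at 0.13 (SE 0.09, limma, adjusted p = 0.582). *Fhl2*, a LIM domain protein, had the most negative at -0.25 (SE 0.11, limma, adjusted p = 0.409). Once the trend of each library with GC content was removed, the differences were 0.04 for *Nck1*, -0.13 for *Siah2*, 0.02 for *Appl1* and -0.21 for *Fhl2*.

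Of the other guidance families (Slit, Robo, semaphorin, plexin, neuropilin, ephrin and Eph genes) 53 of 59 were in the table, and limma called 0 of them, with 6 higher and 6 lower at an unadjusted p under 0.05 (22.6%, beside 12.1% of all genes). In 5 of them the groups did not overlap (9.43%, beside 7.10% of all genes). The ephrin gene *Efnb3* fell from 113 ± 13.6 to 82.4 ± 11.3 CPM by the likelihood ratio test of edgeR (adjusted p = 0.0247), which limma did not call (adjusted p = 0.228), and control replicate 4 lay below mutant replicate 1. The semaphorin gene *Sema3g* was called by DESeq2 (adjusted p = 0.0309) and not by limma (adjusted p = 0.228), with 10.2 ± 0.394 CPM in controls and 14 ± 1.63 in mutants. The median log2 difference of the 53 genes was -0.011. Whether netrin genes differ from these families in their response was not tested.

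**Figure D5:**
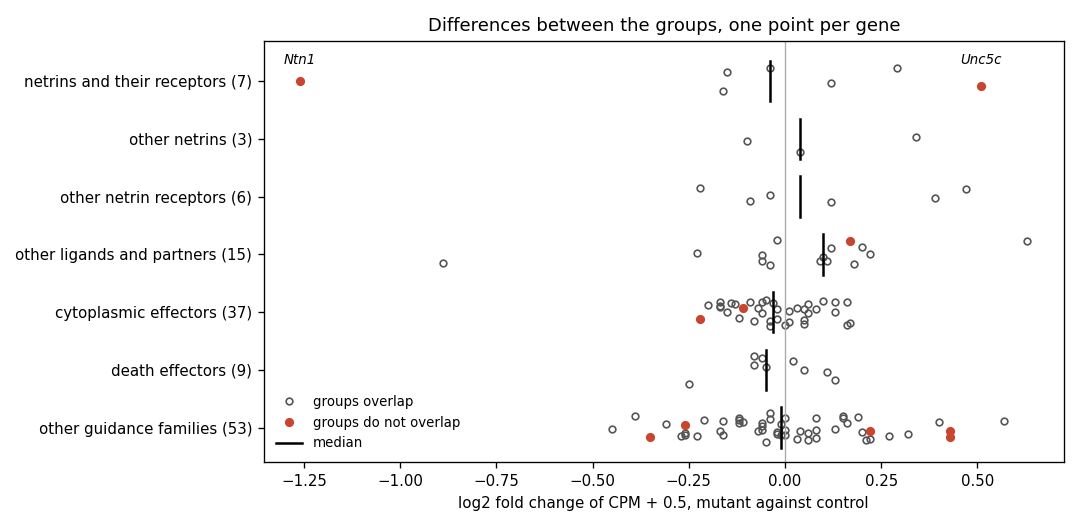
Fitted log2 difference of CPM + 0.5 between mutant and control (x axis), one point per gene, by group of genes (rows, with the number of genes), filled where the groups do not overlap, with the median as a black bar. Ntn1 at -1.26 lies outside the range of all other genes shown, Unc5c at 0.51 lies within it, and every median is close to 0.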

How the data were processed

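RNA-seq of E11.5 OFT from 4 control and 4 Mib1V943F/+ Gata6STOP/+ libraries was analysed, grouped by the sample labels. By their methods, the authors trimmed 60 bp reads with cutadapt 1.18 and quantified them with RSEM 1.2.3 on GRCm38. They filtered genes at 1 CPM in 3 or more samples and normalised by TMM in edgeR 3.32.1. In the deposited table every gene had at least 1 CPM in 4 or more libraries. The deposited values are CPM of the TMM-scaled library size. Within 0.001 reads, 100% of values were whole reads, which the count tests used. Differences were fitted with limma 3.58.1 (eBayes with a trend) on log2(CPM + 0.5) over 14608 genes, calling genes at a Benjamini-Hochberg adjusted p under 0.05. Because values are CPM, the likelihood ratio and quasi-likelihood tests of edgeR 4.0.16 and DESeq2 1.42.0 served as alternatives. Exon lengths came from GENCODE M21. Scripts were tested on simulated data.

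The members and all lists were chosen with earlier results of these data known. Of the lists, 1 pathway gene and 1 marker are not reported here and were left out of their lists. Named genes were all 7 members, the most positive and most negative difference of each pathway group, genes called by any tool, and the 5 genes most like *Ntn1* and *Unc5c* above a mean of 5 CPM. Marker lists were summed in CPM and compared by exact permutation over 70 relabellings. Alternatives covered the pseudocount, the filter, the scaling, the tool, the gene length, a replicate block, each library left out and, added after seeing the data, a GC correction. Replicates differed by 6.67 to 33.7 chi-square per gene, so none was a copy.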

Additional observations from a re-analysis of the deposited data

Results flagged for a closer look

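The most extreme library was set against the others of its group for 19 genes in 38 groups of 4 libraries, and 4 groups held a library far from the rest. About 1 in 20 groups would be marked so by chance. *Neo1* was at 172 CPM in control replicate 1, a gap of 0.901 of the range of the controls. *Itga6* was at 261 CPM and *Hjv* at 5.48 CPM in the same library, with gaps of 0.836 and 0.863 of the range. *Efnb3* was at 92.3 CPM in control replicate 4, below the other controls by 0.859 of their range.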

How the results depend on the processing

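With pseudocounts, filter, scaling or tool changed, the difference of each of the 7 genes kept its direction, and *Ntn1* stayed from -1.29 to -1.16 and *Unc5c* from 0.44 to 0.52 over all settings that used every library, where the weaker end came with the GC trend of each library removed (added after seeing the data). That correction took *Unc5b* to 0.07 and *Unc5a* to -0.02. With 1 library left out, *Ntn1* ranged from -1.47 to -1.0 and *Unc5c* from 0.46 to 0.57. *Dcc* and *Unc5a* have no value under the filter at a mean of 5 CPM, and DESeq2 gives *Dcc* no adjusted p. Samples with the same replicate number did not deviate together (correlations 0.0349, -0.185, 0.0268 and -0.0454), while those of different number ranged from -0.22 to 0.248. No pairing by number was seen, but so few correlations cannot exclude one. With a replicate block limma called 0 genes and the difference of *Ntn1* was -1.26.

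The tool decided the count of genes called, 0 by limma and the quasi-likelihood test, 107 by the likelihood ratio test and 194 by DESeq2, and for the guidance families 1 by the likelihood ratio test and 2 by DESeq2. Leaving out a library moved the likelihood ratio count to between 24 (without control replicate 3) and 209 (without control replicate 4). *Ntn3* turned to 0.02 with the GC trend removed, with or without the block, and ranged from -0.18 to 0.00 with a library left out. The log2 ratio of *Unc5c* over *Ntn4* was 0.96 by longest transcript, 2.36 without division by length and from -0.09 to 0.07 with a library left out. It passed the threshold by longest transcript and without division by length. That of *Ntn4* over *Ntn1* was 0.92 by longest transcript, 0.23 without division by length and from 0.71 to 1.19 with a library left out. It passed the threshold by longest transcript and without control replicate 1. That of *Neo1* over *Unc5c* was 1.25 by longest transcript and 0.86 without division by length, and without it that of *Unc5a* over *Dcc* was 1.79 in place of 3.45 and that of *Ntn1* over *Unc5a* 2.05 in place of 1.46. As a mean of log2 values, macrophage markers were at -0.01 and smooth muscle markers at 0.10. With a library left out, the summed markers ranged from -0.07 to 0.02 for endothelium, -0.05 to 0.22 for epicardium, -0.11 to 0.10 for macrophages, -0.01 to 0.11 for pharyngeal epithelium and -0.06 to 0.04 for smooth muscle. The cause of these changes was not tested. The lowest library held 10 reads of *Dcc* and 44 of *Unc5a*.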
